A study of Mus musculus with 28 samples.

Results

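The 10 genes described here are the 4 fibroblast growth factor (Fgf) receptor genes Fgfr1, Fgfr2, Fgfr3, and Fgfr4, the Sprouty genes Spry1, Spry2, and Spry4, the phosphatase gene Dusp6, and the transcription factor genes Etv4 and Etv5. They were chosen by name for their place in the pathway, with earlier results of these data known, and all 10 were found among the 52636 genes of the count table. RNAseq libraries were made from single first molar tooth germs of wild type C57BL/6JOlaHsd mouse embryos, with 7 teeth each at E13 (bud stage), E14 (cap stage), and E16 (bell stage). The teeth came from 7, 6, and 5 embryos, so that some E14 and E16 teeth are the left and right molar of 1 embryo, and no embryo gave teeth of 2 stages. A separate table of estimated counts holds the same E13 and E16 teeth and 6 teeth from 6 embryos labeled E15.

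Fgf ligands bind receptor tyrosine kinases on the cell surface, and the bound receptors signal through Ras and the ERK kinases. ERK signaling induces its own inhibitors, among them Sprouty proteins, which act on the way to Ras, and Dusp6, which removes phosphate from ERK, and also the ETS transcription factors Etv4 and Etv5, so that these genes are widely used as readouts of Fgf signaling. In teeth, Fgf signals pass in both directions between epithelium and mesenchyme, and the enamel knot, a signaling center of the cap stage epithelium, is a known source of Fgf ligands.

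Promoter sequences were available for 7 of the 10 genes, from 250 bases before to 50 bases after each RefSeq start site (GRCm38.p6). Dusp6 and Etv5 are shown because their profiles over the 21 teeth were close to each other, as described with the profiles of single genes. The capitals mark TGAATG on either strand (CATTCA where it lies on the opposite one), the letters shared by the octamers TGAATGAA and TGAATGGA, which are known binding sequences of Capicua, a repressor that ERK signaling relieves.

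Dusp6, chr10:99262981-99263280, plus strand: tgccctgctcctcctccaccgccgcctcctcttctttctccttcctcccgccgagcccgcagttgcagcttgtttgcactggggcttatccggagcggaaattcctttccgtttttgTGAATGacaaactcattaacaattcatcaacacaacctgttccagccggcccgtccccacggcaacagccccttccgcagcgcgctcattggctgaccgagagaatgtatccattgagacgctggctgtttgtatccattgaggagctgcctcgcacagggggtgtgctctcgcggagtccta

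Etv5, second start site, chr16:22438319-22438618, minus strand: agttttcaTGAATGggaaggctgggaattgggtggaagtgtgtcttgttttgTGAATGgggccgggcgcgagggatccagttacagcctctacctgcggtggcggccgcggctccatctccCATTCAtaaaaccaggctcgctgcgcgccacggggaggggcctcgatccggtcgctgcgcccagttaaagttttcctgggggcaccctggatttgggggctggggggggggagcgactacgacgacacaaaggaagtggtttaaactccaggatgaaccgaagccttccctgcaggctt

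The Dusp6 window holds TGAATG once and the window of the second Etv5 start site 3 times, whereas 12.7% of the 32851 promoter windows of the genome hold it at all. The first Etv5 window and those of Spry1, Spry2, Fgfr2, Fgfr3, and Fgfr4 do not hold these letters. No window of the 7 genes holds TGAATGAA (in 1.30% of all windows), TGAATGGA (1.21%), or the ETS octamer CCGGAAGT (3.89%), on either strand. The hexamer was searched after the sequences had been seen, it is part of both Capicua octamers, and a match is a description of the letters only.

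The libraries had between 17814073 and 27115729 reads counted on genes. Summed markers of epithelium, 12 genes including Krt5 and Krt14, had medians of 25642, 47846, and 94010 normalized counts in the 3 stages in order, and those of dental mesenchyme, 12 genes including Msx1 and Pax9, had medians of 136198, 129213, and 123839. The mesenchyme sum hides single genes, as the median of Msx1 fell from 9088 at E14 to 4122 at E16 and that of Pax9 from 8704 to 4881. At this step 6 of the 12 mesenchyme markers were called lower and 1 higher (edgeR adjusted p below 0.05), against 13.1% and 15% of all genes. The part of these changes in makeup in the results was not tested, and in whole teeth more cells of a type and more RNA per cell cannot be told apart. One library stood apart. In the left tooth of embryo 3 at E16, the mesenchyme markers summed to 51295, against 116595 to 132449 in the other E16 teeth, and the epithelium markers to 60741, against 88165 to 101460. Because this tooth also had the lowest E16 value of 7 of the 10 genes, the fold changes printed for these genes from E14 to E16 are given with and without it. In 2 E13 teeth, the left tooth of embryo 7 and the right tooth of embryo 9, summed skeletal muscle markers reached 30249 and 4998, against 885 to 1801 in the other E13 teeth.

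In the GENCODE annotation of GRCm38, the build of the counts, the 10 protein-coding genes lie on 10 chromosomes. The receptor genes are Fgfr1 (ENSMUSG00000031565) at chr8:25513654-25575718 on the plus strand, Fgfr2 (ENSMUSG00000030849) at chr7:130162451-133123350 on the minus strand, Fgfr3 (ENSMUSG00000054252) at chr5:33721674-33737068 on the plus strand, and Fgfr4 (ENSMUSG00000005320) at chr13:55152640-55168759 on the plus strand. The inhibitor genes are Spry1 (ENSMUSG00000037211) at chr3:37639947-37644598 on the plus strand, Spry2 (ENSMUSG00000022114) at chr14:105891947-105896819 on the minus strand, Spry4 (ENSMUSG00000024427) at chr18:38586247-38601415 on the minus strand, and Dusp6 (ENSMUSG00000019960) at chr10:99263231-99267489 on the plus strand. The transcription factor genes are Etv4 (ENSMUSG00000017724) at chr11:101769742-101785371 on the minus strand and Etv5 (ENSMUSG00000013089) at chr16:22381309-22439719 on the minus strand. The annotated span of Fgfr2 covers 69 other genes because of long read-through transcripts, and among these only the exons of Ctbp2 overlap with its own, whereas RefSeq ends the gene at 130266808. Exons of Fgfr1, Fgfr3, and Spry1 overlap with 1 noncoding gene each on the opposite strand, with a mean of 5.90 to 8.71 counts per library, and whether the counting used strand is not given in the sources used here. The raw counts of the genes ranged from 5 for Fgfr4 to 14749 for Fgfr1.

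**Figure D1:**
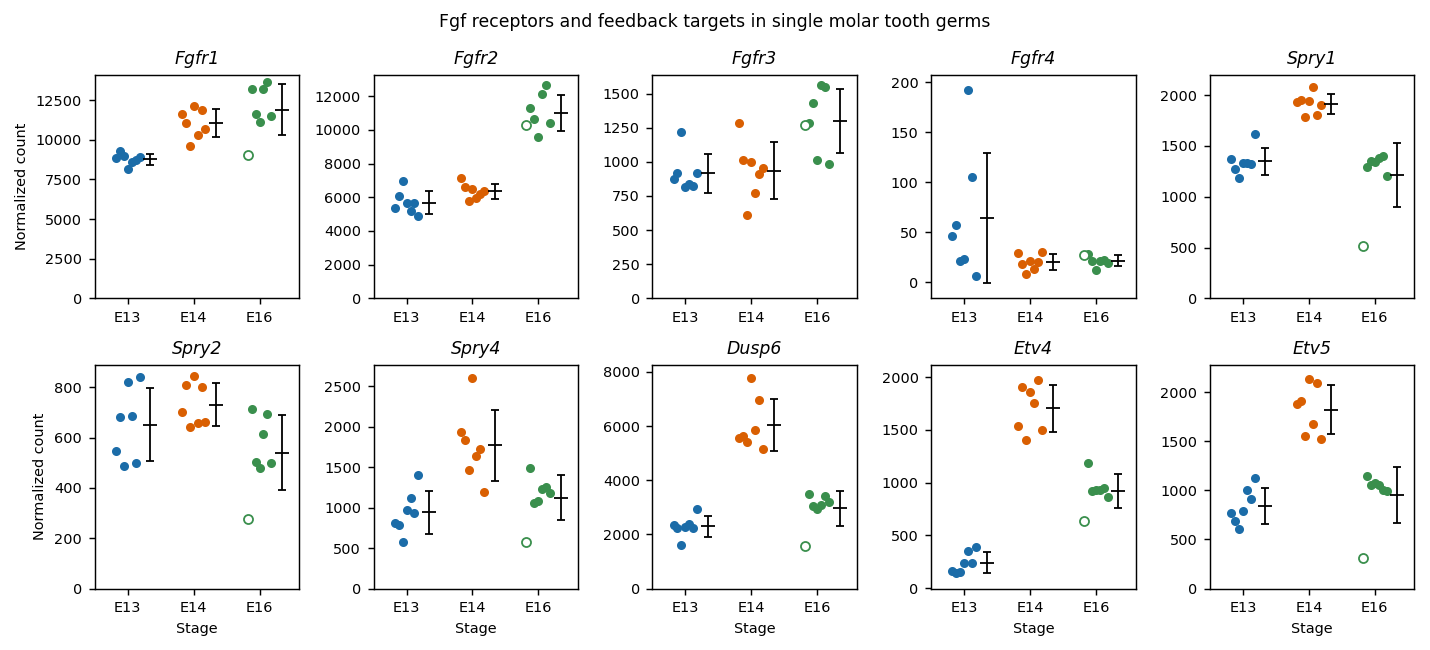
Normalized counts (y axis, reads divided by the size factor of the library) of the 10 genes in 7 tooth germs each of E13, E14, and E16 (x axis). Each point is a tooth, bars show mean and SD, and the open circle is the left tooth of embryo 3 at E16. Dusp6, Etv4, Etv5, and Spry1 had all 7 E14 teeth above all E13 and all E16 teeth, whereas Fgfr2 had all 7 E16 teeth above the rest.

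From bud to cap stage, 6 of the 10 genes rose, 5 of them feedback and target genes, and 1 was called lower. Etv4 rose most, with a mean that was 7.07 times higher at E14, followed by Dusp6 at 2.64 times, Etv5 at 2.17 times, Spry4 at 1.88 times, Spry1 at 1.42 times, and Fgfr1 at 1.26 times. Fgfr4 was the gene called lower. Over all 19101 genes tested, 11.3% were called higher and 8.47% lower in this comparison (edgeR quasi-likelihood test, adjusted p below 0.05).

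From cap to bell stage, the direction turned for the feedback and target genes. All 6 of them fell, with E16 means between 0.490 and 0.739 of those at E14, whereas Fgfr2 and Fgfr3 rose. Among all genes, 15% were called higher and 13.1% lower. The comparisons of E14 with E13 and of E16 with E14 share the E14 teeth, so that a high E14 value enters both. A further contrast set E14 against the mean of E13 and E16. It asks whether the 2 steps differ in size or direction, and it also depends on the E14 teeth. In this contrast Etv4, Dusp6, Etv5, Spry4, and Spry1 were higher at E14 and Fgfr2 was lower, against 6.89% and 6.84% of all genes. For Fgfr2 this is no dip, because its means were 5688, 6352, and 10994 in the 3 stages in order.

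Between the bud and bell stages, 3 of the receptor genes rose. The E16 means of Fgfr1, Fgfr2, and Fgfr3 were 1.35, 1.93, and 1.42 times those at E13, Etv4 was 3.80 times higher, and Dusp6 1.29 times higher, while Fgfr4 was called lower. Spry1, Spry2, Spry4, and Etv5 did not pass the test. Of all genes, 21.6% were called higher and 19.6% lower.

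**Figure D2:**
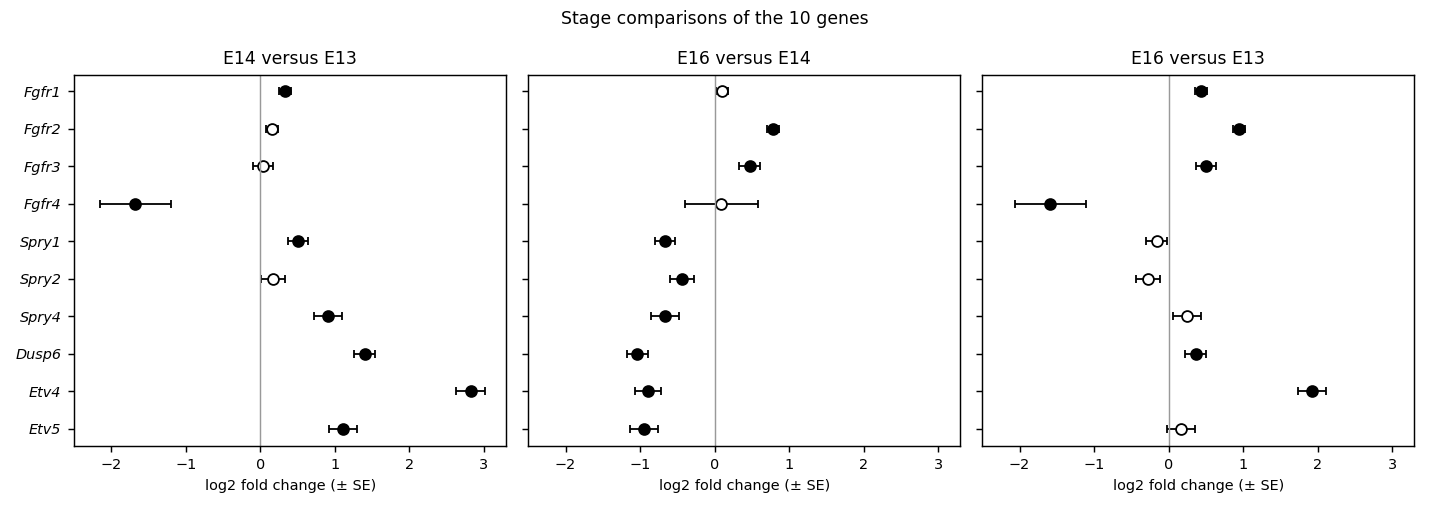
Log2 fold changes with SE (x axis) of the 10 genes (y axis) in 3 stage comparisons from the edgeR fit over 21 teeth; filled circles passed an adjusted p of 0.05. The 6 feedback and target genes lie left of 0 in the comparison of E16 with E14, and Fgfr4 has the widest error bars.

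Fgfr1 had normalized counts between 8171 and 9295 at E13 (median 8849), between 9627 and 12156 at E14 (median 11090), and between 9056 and 13681 at E16 (median 11605). All E14 teeth lay above all E13 teeth, and the only E16 tooth within the E13 range was the left tooth of embryo 3. The log2 fold change was 0.33 (SE 0.08) from E13 to E14, with an adjusted p of 0.00471 in edgeR. From E14 to E16 it was 0.10 (SE 0.08, edgeR adjusted p = 0.375), and without the left tooth of embryo 3 it was 0.17 (adjusted p = 0.0247).

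Fgfr2, whose epithelial and mesenchymal splice forms bind different ligands, was the receptor with the clearest stage step. The counts per gene do not separate these forms. It ranged from 4904 to 6981 at E13 (median 5662), from 5774 to 7125 at E14 (median 6347), and from 9556 to 12662 at E16 (median 10621). The E13 and E14 teeth overlapped, and every E16 tooth, that of embryo 3 included, lay above every earlier tooth. The log2 fold change was 0.16 (SE 0.08, edgeR adjusted p = 0.176) from E13 to E14 and 0.79 (SE 0.08, adjusted p = 4.53e-08) from E14 to E16. The second step was 0.82 (SE 0.07) without the left tooth of embryo 3. The summed epithelium markers rose over the same step, and their part in the Fgfr2 values was not tested.

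Fgfr3 ranged from 817 to 1220 at E13 (median 875), from 613 to 1282 at E14 (median 957), and from 983 to 1563 at E16 (median 1284). The stages overlapped, but 4 of the 7 E16 teeth lay above all E14 teeth. The log2 fold change from E14 to E16 was 0.47 (SE 0.14, edgeR adjusted p = 0.0105), and with 1 tooth per embryo it was 0.36 and not past the threshold (adjusted p = 0.0910). It was 0.49 (SE 0.14, adjusted p = 0.00641) without the left tooth of embryo 3. From E13 to E14 it was 0.03 (SE 0.14, adjusted p = 0.908).

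Fgfr4, a receptor known from developing skeletal muscle, was near the lower limit of these libraries. It had normalized counts between 6.16 and 192 at E13 (median 46.2), between 8.17 and 30.0 at E14 (median 20.3), and between 12.05 and 27.7 at E16 (median 21.7). The high E13 values came from 2 teeth. These were the left tooth of embryo 7 (192) and the right tooth of embryo 9 (105), the same teeth that had the highest summed skeletal muscle markers, and the other 5 E13 teeth reached at most 56.8. At E16, the right tooth of embryo 6 had the highest muscle marker sum of its stage (3922) and the lowest Fgfr4 (12.05). Fgfr4 was called lower at E14 than at E13, with a log2 fold change of -1.68 (SE 0.48, edgeR adjusted p = 0.0143). Without the left tooth of embryo 7 this value was -1.10 and not past the threshold (adjusted p = 0.0740), and without both teeth it was -0.61 (SE 0.40, adjusted p = 0.339). The comparison of E16 with E13 changed in the same manner, from -1.59 (adjusted p = 0.00919) to -0.99 (adjusted p = 0.0670) and -0.50 (adjusted p = 0.357).

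**Figure D3:**
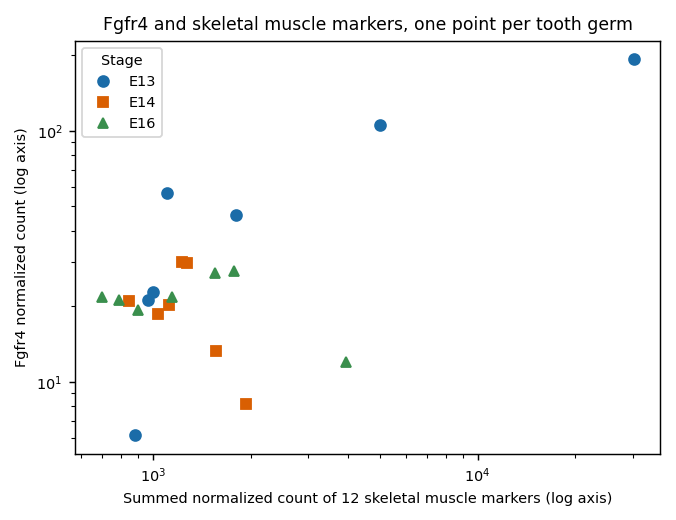
Fgfr4 normalized counts (y axis, log) against the summed normalized counts of 12 skeletal muscle markers (x axis, log) in each of 21 tooth germs, with stages by color and symbol. The 2 E13 teeth at the upper right, with 192 and 105 counts of Fgfr4, have muscle marker sums of 30249 and 4998.

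Spry1 ranged from 1180 to 1621 at E13 (median 1330), from 1783 to 2077 at E14 (median 1928), and from 511 to 1400 at E16 (median 1337). The E14 teeth overlapped with neither of the other stages. The log2 fold change was 0.50 (SE 0.14, edgeR adjusted p = 0.0110) from E13 to E14 and -0.66 (SE 0.14, adjusted p = 0.00067) from E14 to E16. Without the left tooth of embryo 3 at E16, whose value was 511, the second step was -0.52 with a smaller error (SE 0.06, adjusted p = 2.81e-07).

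Spry2 was the feedback gene that varied least with stage. Its normalized counts were 487 to 843 at E13 (median 680), 641 to 845 at E14 (median 702), and 279 to 713 at E16 (median 504). All stages overlapped, with 5 of the 7 E16 teeth below all E14 teeth. On the log2 scale the fold change was 0.16 (SE 0.16, edgeR adjusted p = 0.504) from E13 to E14. The fall from E14 to E16, -0.44 (SE 0.16, adjusted p = 0.0392), was close to the threshold and was lost when any 1 of 11 teeth was left out, the left tooth of embryo 3 among them (-0.31, adjusted p = 0.0589).

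Spry4 had the widest spread between teeth of the Sprouty genes at E14. It ranged from 577 to 1399 at E13 (median 928), from 1188 to 2605 at E14 (median 1723), and from 571 to 1486 at E16 (median 1181). In E14, 6 teeth lay above all E13 teeth, and the left tooth of embryo 8 lay within their range. Its log2 fold change was 0.91 (SE 0.19, edgeR adjusted p = 0.000979) from E13 to E14 and -0.66 (SE 0.18, adjusted p = 0.00848) from E14 to E16, and the latter was -0.53 (adjusted p = 0.0106) without the left tooth of embryo 3.

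Dusp6 was the most abundant feedback gene. It ranged from 1618 to 2934 at E13 (median 2284), from 5165 to 7771 at E14 (median 5618), and from 1566 to 3489 at E16 (median 3081). The lowest E14 tooth was well above the highest tooth of either other stage. In the edgeR fit the log2 fold change was 1.40 (SE 0.14, edgeR adjusted p = 8.75e-08) from E13 to E14 and -1.03 (SE 0.14, adjusted p = 3.18e-06) from E14 to E16, and -0.91 (SE 0.10) without the left tooth of embryo 3. The difference between E13 and E16 was small, 0.36 (SE 0.14, adjusted p = 0.0382), and it was lost when any 1 of 7 teeth was left out. Without the left tooth of embryo 3 at E16 it was 0.49 (adjusted p = 0.000239).

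Etv4 showed the largest change. Its normalized counts were 146 to 394 at E13 (median 237), 1405 to 1972 at E14 (median 1759), and 638 to 1185 at E16 (median 934). The 3 stages did not overlap, and E16 lay between the other two. On the log2 scale the fold change was 2.82 (SE 0.19, edgeR adjusted p = 1.01e-10) from E13 to E14 and -0.90 (SE 0.18, adjusted p = 0.000375) from E14 to E16. Between E13 and E16 it was 1.92 (SE 0.19, adjusted p = 7.03e-09). Without the left tooth of embryo 3 these last values were -0.81 (SE 0.17) and 2.01 (SE 0.18).

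Etv5 had normalized counts of 606 to 1126 at E13 (median 787), 1521 to 2135 at E14 (median 1879), and 312 to 1144 at E16 (median 1054). The E14 teeth lay above all others, whereas E13 and E16 overlapped. Its log2 fold change was 1.11 (SE 0.19, edgeR adjusted p = 0.000124) from E13 to E14 and -0.95 (SE 0.19, adjusted p = 0.00039) from E14 to E16, and -0.78 (SE 0.11) without the left tooth of embryo 3. Unlike for Etv4, the difference between E13 and E16 did not pass the test, at 0.17 (SE 0.19, adjusted p = 0.508), and here 1 tooth decided the call. Without the left tooth of embryo 3, with 312 counts against 990 to 1144 in the other E16 teeth, it was 0.33 (SE 0.11, adjusted p = 0.0153).

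Ratios of counts of genes within a tooth do not depend on library size, and their differences between stages do not depend on gene length. For 7 ratios the 3 pairs of stages were compared. Exact two-sided permutation tests over teeth were used, with Benjamini-Hochberg adjustment over the 21 tests. The balance of Etv4 and Etv5 shifted between E13 and E14 and not measurably thereafter. Averaged over 7 teeth per stage, their log2 ratio was -1.87 ± 0.30 (SD) at the bud, -0.10 ± 0.12 at the cap, and 0.03 ± 0.45 at the bell stage. The difference between E14 and E13 was 1.77, with an exact adjusted p of 0.00245 that rests on the smallest p these splits can give (0.000583). That between E16 and E14 was 0.13 (exact adjusted p = 0.758), and it turned to -0.04 without the left tooth of embryo 3, which had the highest ratio.

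The balance of Fgfr1 and Fgfr2 shifted between E14 and E16. Their mean log2 ratio was 0.63 ± 0.16 (SD, n = 7) in E13 teeth, 0.80 ± 0.09 in E14 teeth, and 0.11 ± 0.14 in E16 teeth. The difference between E16 and E14 was -0.69 (exact permutation test, adjusted p = 0.00245), and -0.64 without the left tooth of embryo 3 (adjusted p = 0.00306). The difference between E14 and E13 was 0.16 (exact adjusted p = 0.0561), and it passed without the left E13 tooth of embryo 10 (0.20, exact adjusted p = 0.00490).

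The feedback inhibitors did not change in parallel. Spry4 gained on Spry2 from E13 to E14, by 0.73 on the log2 scale (exact permutation test, adjusted p = 0.00272). Dusp6 gained on Spry4 over the same step by 0.48 (exact adjusted p = 0.00272), and from E14 to E16 this ratio fell by 0.39 (exact adjusted p = 0.00272). Between E13 and E16 the ratio of Dusp6 to Spry4 differed by 0.10 (exact adjusted p = 0.320). In all, 11 of the 21 differences passed. Those of Spry1 to Spry2 from E13 to E14 (0.32) and of Fgfr3 to Fgfr2 from E14 to E16 (-0.30), both with an exact adjusted p of 0.0467, were lost when any 1 of 14 and of 13 teeth, respectively, was left out. Both were also lost with the mean over the teeth of 1 embryo (exact adjusted p of 0.0537 and 0.0720), where 9 of the 21 differences passed.

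**Figure D4:**
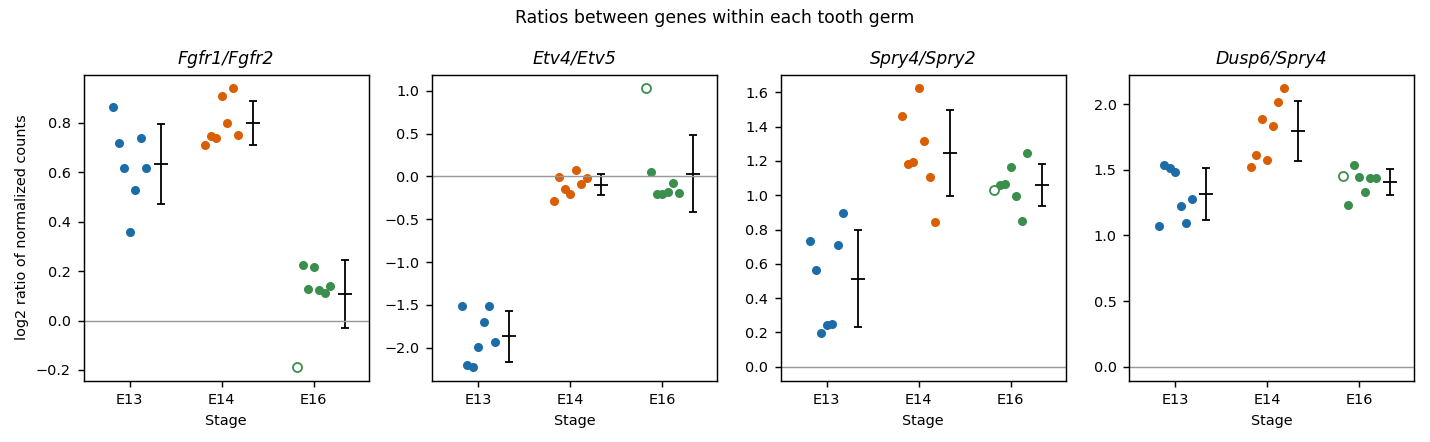
Log2 ratios of normalized counts (y axis) of 4 pairs of genes within each of 7 teeth per stage (x axis), with mean and SD; the open circle is the left tooth of embryo 3 at E16, and the line marks equal counts. Etv4/Etv5 changes by 1.77 between E13 and E14, and Fgfr1/Fgfr2 falls by 0.69 between E14 and E16.

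Levels of different genes were compared per kilobase of exon. At E13 the order of the mean normalized counts per kilobase was Fgfr1 (890), Dusp6 (733), Fgfr2 (551), Spry1 (464), Spry2 (312), Etv5 (205), Spry4 (198), Fgfr3 (128), Etv4 (77.7), and Fgfr4 (18.2). Of the neighbors in this order, Fgfr1 and Dusp6, Dusp6 and Fgfr2, Fgfr2 and Spry1, Etv5 and Spry4, and Spry4 and Fgfr3 did not differ beyond their spread (exact two-sided sign-flip permutation test over 7 teeth, Benjamini-Hochberg adjusted over 27 pairs). The other 4 pairs differed in the same direction in all 7 teeth, with the smallest p that this test allows (0.0156, adjusted 0.0384).

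At E14 the order was Dusp6 (1932 per kilobase), Fgfr1 (1120), Spry1 (658), Fgfr2 (615), Etv4 (549), Etv5 (445), Spry4 (372), Spry2 (350), Fgfr3 (131), and Fgfr4 (5.69). Spry1 and Fgfr2, Fgfr2 and Etv4, Etv5 and Spry4, and Spry4 and Spry2 did not differ beyond their spread. At E16 it was Fgfr1 (1205), Fgfr2 (1065), Dusp6 (946), Spry1 (417), Etv4 (296), Spry2 (259), Spry4 (236), Etv5 (231), Fgfr3 (182), and Fgfr4 (6.09), where only Dusp6 with Spry1 and Fgfr3 with Fgfr4 passed the test. Fgfr1 with Fgfr2, Spry1 with Etv4, and Etv5 with Fgfr3 kept this order in 6 of 7 teeth. The exception in each was the left tooth of embryo 3, at 917 against 998, 176 against 205, and 76.1 against 177. The neighbor tests were not repeated without this tooth. These tests count each tooth, although teeth of 1 embryo are not independent. By embryo, the smallest p that a sign-flip test allows is 0.03125 for the 6 embryos of E14 and 0.0625 for the 5 of E16. As all 27 pairs are adjusted together, no call of any stage could pass at that level. The order depends on the length used. With the longest transcript in place of all exons, which shortens Fgfr1, Fgfr2, and Fgfr3 most, Fgfr1 and Dusp6 changed places at E14 and no longer differed (exact adjusted p = 0.692). Within the receptor sum per kilobase of exon, Fgfr1 made up 56.2% ± 2.5 (SD, n = 7) at the bud stage, 59.9% ± 1.7 at the cap stage, and 49.0% ± 2.6 at the bell stage. The share of Fgfr2 was 34.6% ± 2.4, 32.9% ± 1.3, and 43.4% ± 1.9.

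Teeth of 1 stage also differed from each other, and several of the genes varied together. Correlations of log2(normalized count + 1) were computed for 6 pairs over 7 embryos at E13 and 6 embryos at E14, with exact pairing permutation tests adjusted over the 12 correlations. Spry4 and Etv5 had a Pearson's r of 0.95 at E13 and 0.94 at E14 (both exact adjusted p = 0.0167), with Spearman's rho of 0.96 (exact adjusted p = 0.0333) and 0.94 (exact adjusted p = 0.04). Without the 2 embryos farthest from the median of Spry4, r was 0.87 and 0.89. At E13, Etv4 and Etv5 had r = 0.94 (exact adjusted p = 0.0167) and rho = 0.93 (exact adjusted p = 0.04), with r = 0.89 without the 2 farthest embryos. Dusp6 and Spry4 had r = 0.92 (exact adjusted p = 0.0190) and rho = 0.89 (exact adjusted p = 0.04), but r was 0.53 without the 2 farthest. The 5 embryos left are too few to say whether the relation rests on those 2. At E14 the same pair had r = 0.82 (exact adjusted p = 0.0643), and 0.96 over the 4 embryos left without the 2 farthest. The other 8 correlations, that of Dusp6 and Spry4 at E14 among them, did not pass by Pearson's r. The left tooth of embryo 10 was the highest E13 tooth for all of the feedback and target genes, and the left tooth of embryo 3 the lowest for 5 of them.

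The gene most alike in profile was searched for each of the 10 genes among 12860 genes with a mean of at least 100 raw counts. The measure was the root mean square difference of the centered log2 values over the 21 teeth. Dusp6 and Etv5 were each other's second nearest gene (difference 0.227), and Usp2, a ubiquitin protease gene, was nearest to both (0.224 and 0.216). Etv5 (0.255) and Dusp6 (0.270) were among the 3 genes nearest to Spry4. Etv4 stood farther from the other members, with Dusp6 nearest at 0.795, and its nearest genes were Dlx1as (0.34), Enpp1 (0.357), and Me3 (0.446). The 3 genes nearest to Fgfr4 were Ryr1 (0.745), Neb (0.785), and Myom1 (0.790), which encode a calcium channel and structural proteins of muscle, though none of them was close. Fgfr2 had Atp11a (0.119), Ahcyl2 (0.133), and Tnfrsf19 (0.136) as its nearest genes, and Spry1 had Coro1c (0.119), Sh2b3 (0.121), and Ccnd2, a cyclin gene (0.135).

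The E15 teeth are held only in the table of estimated counts, which has no E14 teeth, so that E15 could be compared with E13 and E16 and not with E14. As the methods of the study do not describe the E15 teeth, whether they were handled together with the others is not known. Stage and handling cannot be told apart in the comparisons with E15. Of the 10 genes, 3 were higher at E15 than at E13, Etv4 by 1.60 (SE 0.22, edgeR adjusted p = 4.94e-06), Fgfr2 by 0.62 (SE 0.10, adjusted p = 4.56e-05), and Dusp6 by 0.42 (SE 0.14, adjusted p = 0.0237) on the log2 scale, and none was called lower, against 18.3% and 8.49% of all 13447 genes tested in this table. Normalized estimated counts of Etv4 were 133 to 369 at E13 (median 217), 482 to 932 at E15 (median 620), and 608 to 1012 at E16 (median 815). The E15 teeth lay above all E13 teeth and overlapped with E16.

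Dusp6 had estimated counts of 1572 to 2832 at E13 (median 2220), 2346 to 3661 at E15 (median 2835), and 1693 to 3325 at E16 (median 2947), with all stages overlapping. Its rise from E13 to E15 was lost without the left E13 tooth of embryo 3 or the right E15 tooth of embryo 1 (0.35 to 0.36, adjusted p from 0.0536 to 0.0656). Spry4 had a log2 fold change of 0.00 (SE 0.19, edgeR adjusted p = 0.997) and Etv5 of 0.30 (SE 0.21, adjusted p = 0.303) between E13 and E15. Without the left E16 tooth of embryo 3, which enters the estimate of the spread, Etv5 (0.30, adjusted p = 0.0416) and Fgfr1 (0.26, adjusted p = 0.0396) also passed, and Fgfr1 passed without the left E15 tooth of embryo 8 (0.33, adjusted p = 0.0201).

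From E15 to E16, only Fgfr2 passed, with a log2 fold change of 0.34 (SE 0.10, edgeR adjusted p = 0.0417), where 3.64% of all genes were called higher and 2.69% lower. It ranged from 4383 to 6448 at E13 (median 5213), from 6960 to 9164 at E15 (median 7397), and from 8499 to 11413 at E16 (median 10085). In E16, 6 teeth lay above all E15 teeth, yet the call was lost when any 1 of 13 teeth was left out (adjusted p up to 0.0949).

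**Figure D5:**
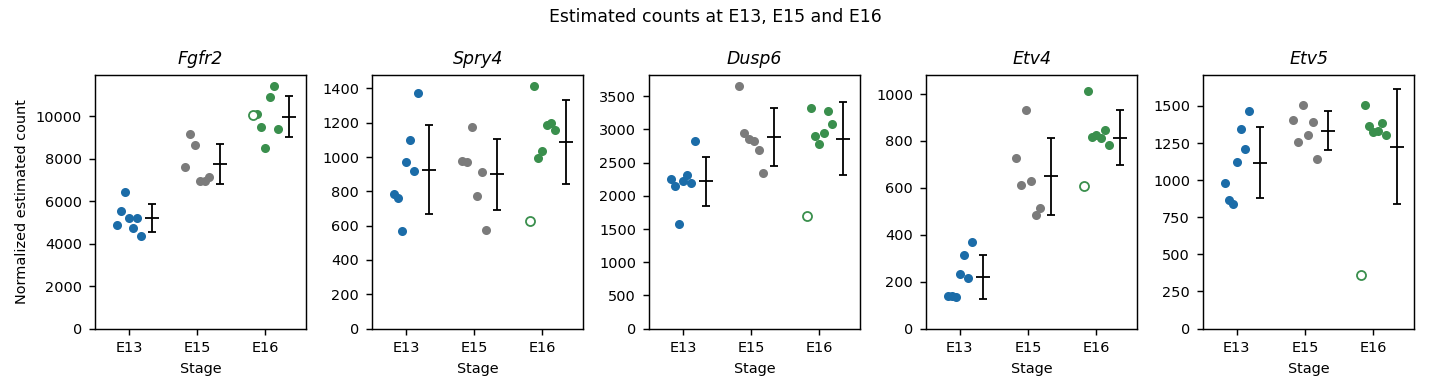
Normalized estimated counts (y axis) of 5 genes in 7 E13, 6 E15, and 7 E16 teeth (x axis), with mean and SD; the open circle is the left tooth of embryo 3 at E16. Fgfr2 has medians of 5213, 7397, and 10085, and the E15 teeth of Etv4 lie above all E13 teeth.

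Other genes of the pathway were counted from 4 lists. Of 13 Fgf ligand genes tested, 8 were called higher and 1 lower at E14 than at E13 (median log2 fold change 0.70, against -0.01 over all genes), and 2 higher and 10 lower at E16 than at E14 (median -0.99, against 0.00). The shares called higher and lower over all genes were 11.3% and 8.47% at the first step, and 15% and 13.1% at the second. The largest rises were in the enamel knot ligands Fgf3 (6.45, SE 0.39, adjusted p = 1.69e-11) and Fgf4 (4.13, SE 0.44, adjusted p = 1.94e-07), and in Fgf15 (3.02, SE 0.46, adjusted p = 3.51e-05), all by edgeR. Their E13 means were low, at 6.01, 11.1, and 7.78 normalized counts, so that the sizes of these rises are uncertain. At the second step Fgf8, a ligand of the early dental epithelium, fell by 3.57, Fgf15 fell by 2.83, and Fgf16 fell by 1.93. The E16 means of these 3 genes were near the lower limit, at 1.57, 8.76, and 5.64 normalized counts. Fgf9 and Fgf10 were the 2 ligand genes that rose from E14 to E16.

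Other feedback and target genes of ERK signaling formed the second list. Of 23 tested, 10 were called higher and none lower at E14 (median 0.44), and 1 was higher and 9 were lower at E16 (median -0.33), with 13 not called at each step. The shares over all genes, 11.3% and 8.47% and then 15% and 13.1%, are those given for the ligands. At the second step 6 in place of 10 were called with the teeth of 1 embryo summed, and 5 with 1 tooth per embryo. The largest rises were in the immediate early genes Egr1 (4.31, SE 0.50, edgeR adjusted p = 8.63e-07) and Fos (3.71, SE 0.67, adjusted p = 0.000267), and in the phosphatase gene Dusp5 (2.39, SE 0.23, adjusted p = 3.94e-08). From E14 to E16, Egr1 fell by 2.09 and Fos by 1.91, the latter not past the threshold without the left E14 tooth of embryo 8 (-1.06, adjusted p = 0.145), with the teeth of 1 embryo summed (-1.84, adjusted p = 0.0690), or with 1 tooth per embryo (-1.98, adjusted p = 0.0540). Phlda1 was the gene that rose, by 1.09 (SE 0.21, edgeR adjusted p = 0.000235).

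Genes that act between ligand and ERK were also counted. Of 25 transducers of the Ras and ERK cascade, 3 were called higher and 1 lower at E14 (median 0.03), where 11.3% and 8.47% of all genes were called. At E16, 3 were higher and 2 lower (median -0.05), against 15% and 13.1% of all genes. Frs3, an adaptor of the receptors, changed by -0.62 (SE 0.15, edgeR adjusted p = 0.00574) and then by 0.41 (SE 0.15, adjusted p = 0.0498), the second of which was lost when any 1 of 12 teeth was left out. Without the left E16 tooth of embryo 3, 8 and 9 transducers were called at the 2 steps in place of 4 and 5. At the second step 3 were called without any 1 of 6 other teeth, which were the right E14 teeth of embryos 5 and 6, the left E14 tooth of embryo 6, the left E16 teeth of embryos 5 and 8, and the right E16 tooth of embryo 7, and also with the teeth of 1 embryo summed or with 1 tooth per embryo.

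Of 27 coreceptor and heparan sulfate genes, which shape the binding of ligands, 5 were called higher and 6 lower at E14 (median -0.04), and 3 higher and 8 lower at E16 (median -0.18), against the same shares of all genes as for the transducers. The largest falls at E14 were in the glypican gene Gpc2 (-0.95, SE 0.13, edgeR adjusted p = 8.60e-06) and in Sulf1, a heparan sulfate endosulfatase gene (-0.85, SE 0.10, adjusted p = 9.06e-07). Hs6st2, a heparan sulfate sulfotransferase gene, fell by 1.15 from E14 to E16 (adjusted p = 5.85e-12), and Fgfbp1, which encodes a carrier of Fgf ligands, rose at both steps, by 0.72 and 1.10. In the list of Fgf pathway genes used in the study, without the 6 of these 10 genes that it holds, 15 of 57 genes tested were called higher and 2 lower at E14, and 8 higher and 14 lower at E16, against the same shares of all genes. Without the left E16 tooth of embryo 3, 26 were called at the first step in place of 17.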

How the data were processed

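Per the methods of the study, reads were filtered by the authors using Trimmomatic after quality control in FastQC and AfterQC. STAR was used for alignment to GRCm38 (Ensembl release 90) and HTSeq for counting per gene. The deposited table holds raw counts of 52636 genes in 21 teeth. Estimated counts from salmon (expected counts, deposited as whole numbers) were given for 14185 genes in 20 teeth in another table. The salmon version and index are not given in the sources used here. Symbols, positions, and exon lengths came from GENCODE M21 (GRCm38), in which 233 identifiers of the first table are absent, and promoters from RefSeq. The right E15 tooth of embryo 5 was not analysed here. One E13 column of the first table names its embryo X and was read as embryo 10, the only E13 left tooth without another column. Its stage does not depend on this reading.

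Library totals ranged from 17814073 to 27115729 counts, and from 14965319 to 24056056 in the second table. Normalized counts are counts divided by DESeq2 size factors. Stages were compared with the edgeR 4.0.16 quasi-likelihood test in R 4.3.3, in 1 fit per table with stage as the only factor, TMM normalization, and filterByExpr (19101 and 13447 genes), adjusted over all genes with the Benjamini-Hochberg method at 0.05. The fit estimated a coefficient of variation between teeth of 21.2% (22.7% in the second table), which limits the precision more than depth does for all of the genes but Fgfr4. Teeth are the replicates, and teeth of 1 embryo are not independent. Ratios, neighbors in the order, and correlations used exact permutation tests coded in Python, with ranks for Spearman's rho from scipy 1.17.1. Ratios and correlations were computed on log2(normalized count + 1). Neighbors were compared on the log2 normalized count per kilobase with a smaller added constant. The edgeR step was tested on simulated counts.

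The 10 genes and all lists were chosen with earlier results of these data known. Named genes of each list are the 3 with the largest called change at each step and a mean of at least 10 counts. A gene that this rule names is not reported here. Alternatives were DESeq2 1.42.0 and its size factors, no filter on low counts, protein-coding genes only, side as a factor, teeth of 1 embryo summed, 1 tooth per embryo, each tooth left out, another gene length, medians, and Spearman's rho. Leaving out the 2 E13 teeth with high muscle markers and the search for TGAATG were added after the data were seen.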

Additional observations from a re-analysis of the deposited data

Results flagged for a closer look

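In 4 of 40 groups of teeth (10 genes in 4 stages), 1 tooth lay apart from the others of its stage by Dixon's criterion, which chance alone meets in about 1 of 20 groups. Of these, 3 are the left tooth of embryo 3 at E16. Its normalized counts were 511 for Spry1, against 1199 to 1400 in the other E16 teeth, 1566 for Dusp6, against 2945 to 3489, and 312 for Etv5, against 990 to 1144. The same tooth had the lowest E16 sums of the markers of dental mesenchyme, epithelium, enamel knot, endothelium, bone, cartilage, macrophages, and Schwann cells and neurons. For the other marker lists, skeletal muscle and red cells, another E16 tooth was lowest. The fourth is Fgfr3 in the left tooth of embryo 3 at E13, at 1220 against at most 921 in the other E13 teeth. Embryo 3 of E13 and embryo 3 of E16 are different embryos.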

How the results depend on the processing

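The counts of called genes among the 10 were 7 (E14 versus E13), 8 (E16 versus E14), 6 (E16 versus E13), and 6 (E14 against the mean of E13 and E16), and when each tooth was left out in turn they ranged from 6 to 7, 7 to 8, 5 to 7, and 6 to 6. For E15 versus E13 the count was 3 (2 to 5), and for E16 versus E15 it was 1 (0 to 2), and 0 with the teeth of 1 embryo summed. Of the 21 ratio tests 11 passed (9 to 13). By Spearman's rho 6 of 12 correlations passed in place of 4, and with the longest transcript 14 of 27 neighbors differed in place of 11. Without the 2 E13 teeth high in muscle markers the counts were 6, 7, 4, and 6. No paired analysis was possible because each embryo gave teeth of 1 stage only.

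Of 1240 leave-one-out values of log2 fold changes of the 10 genes, 1176 kept both direction and call, and of 410 values under other settings 395 did. The E14 to E16 fall of Spry2 lost its call without E13 embryos 1 or 7, E14 embryos 1, 2, 5, 8, or the right tooth of 6, or E16 embryos 3, either tooth of 6, or the right tooth of 8 (adjusted p up to 0.0896), and with side as a factor, with teeth summed, or without the 2 E13 teeth high in muscle markers (up to 0.0923). The E13 to E16 rise of Dusp6 did so without E13 embryos 2, 3, or 5 or E16 embryos 5, 7, or either tooth of 8 (up to 0.0773), and with teeth summed or 1 per embryo (up to 0.112). Fgfr4 at E15 passed without 4 single teeth and by DESeq2 (-1.67), and Fgfr3 from E15 to E16 without the left E15 tooth of embryo 3 (0.63). Counts over all genes moved by over 1.5 times only without the left E16 tooth of embryo 3, to 5855 from 3767 (E14 versus E13), to 3995 from 2622 (E14 against the mean), and to 1382 from 851 (E16 versus E15). The cause of these changes was not tested.

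Directions that turned were those of values that did not pass the test. With each tooth left out in turn, Fgfr3 at E14 against E13 ranged from -0.064 to 0.112 (and was -0.026 without the 2 E13 teeth high in muscle markers), Fgfr4 at E16 against E14 from -0.030 to 0.236 (-0.0098 with side as a factor), the ratio of Fgfr4 to Fgfr1 over this step from -0.091 to 0.177 (-0.0082 between medians), and that of Etv4 to Etv5 from -0.038 to 0.167 (-0.089 between medians). For E15 against E13, Fgfr3 ranged from -0.104 to 0.155 and Spry4 from -0.099 to 0.122 (-0.043 with DESeq2 size factors and with its Wald test). For E16 against E15, Fgfr4 ranged from -0.177 to 0.416, Spry2 from -0.207 to 0.058, Dusp6 from -0.092 to 0.055, and Etv5 from -0.201 to 0.0099.

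Fgfr4 had between 5 and 203 raw counts per library, the only one of the 10 genes for which depth limits the values. Splice forms of the receptors, cell types, and E14 against E15 could not be compared in these tables. The 2 tables were made by different programs and were not compared level by level.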
